A study of Mus musculus with 4 samples.

Results

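Pparg, Rxra, Cebpa, Cebpb, Cebpd, Klf5, Klf9, Klf15 and Ebf1 encode transcription factors that drive or sustain fat cell formation. These 9 genes, of 13108 named on the arrays, were taken by gene symbol or gene identifier. They were read by 19 of the 22626 probe sets, a probe set being a group of array probes for 1 transcript. The study used 4 Affymetrix arrays, 1 per group. Primary cultures of mouse visceral adipocytes were kept 2 h with 10 µM forskolin, which raises cAMP by switching on adenylyl cyclase, or with its solvent DMSO as vehicle. Epididymal fat pads came from mice on normal chow or from mice kept 12 weeks on a 60% high fat diet. The deposited headers mark both fat arrays "WT" without spelling it out. Strain, age, any further account of genotype, how the cultures were made and how many mice or cultures gave each RNA are not stated in the labels. The pads are whole tissue, so fewer cells of a type and less RNA per cell cannot be told apart in them.

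In cultured precursor cells, Cebpb and Cebpd are induced first, by hormones and cAMP, and then help to turn on Pparg and Cebpa. The PPARG protein binds DNA as a dimer with RXRA, and PPARG and C/EBPα keep each other expressed and activate the genes of the mature fat cell. Klf5 acts between the early and late C/EBP factors, Klf9 and Klf15 act later, and Ebf1 acts upstream of Cebpa and Pparg and is also a factor of the B cell lineage.

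The authors' deposited table sorts genes by predicted CRE, the cAMP response element that the factor CREB binds. It places 7 of the 9 factors in a CRE class (77.8%), against 2923 of the 11639 classed genes (25.1%). Cebpb, Cebpd and Rxra carry the class with a TATA box, Klf5, Klf9, Klf15 and Ebf1 the class without one, and Pparg and Cebpa the class "others". The labels do not say how the classes were predicted. The upstream sequences below show which of 5 short motifs the start regions hold. They are the 250 bases before a RefSeq gene start on build GRCm38.p6, all on the plus strand, for the factors brightest in culture (Cebpb), with a single CRE half-site (Klf9), and for the pair that sustains the fat cell (Cebpa and Pparg). The Cebpb window is chr2:167688665-167688914, that of Klf9 chr19:23140976-23141225 and that of Cebpa chr7:35119043-35119292. That of Pparg is chr6:115421816-115422065, before the last of its 3 listed starts. Capitals mark matches on either strand to TGACG (the CRE half-site, part of the full site TGACGTCA), TTGCNNAA (a C/EBP motif), CCACCC (a KLF motif) or TATAAA.
Cebpb: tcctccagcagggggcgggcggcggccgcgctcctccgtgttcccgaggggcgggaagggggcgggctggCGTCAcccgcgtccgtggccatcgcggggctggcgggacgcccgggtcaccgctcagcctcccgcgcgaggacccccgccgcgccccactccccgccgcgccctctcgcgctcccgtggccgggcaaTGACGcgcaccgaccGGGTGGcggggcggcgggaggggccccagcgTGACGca
Klf9: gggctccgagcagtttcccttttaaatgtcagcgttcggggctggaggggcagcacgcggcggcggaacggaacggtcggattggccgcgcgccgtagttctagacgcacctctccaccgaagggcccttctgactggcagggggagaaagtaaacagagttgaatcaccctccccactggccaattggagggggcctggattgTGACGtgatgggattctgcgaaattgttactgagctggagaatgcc
Cebpa: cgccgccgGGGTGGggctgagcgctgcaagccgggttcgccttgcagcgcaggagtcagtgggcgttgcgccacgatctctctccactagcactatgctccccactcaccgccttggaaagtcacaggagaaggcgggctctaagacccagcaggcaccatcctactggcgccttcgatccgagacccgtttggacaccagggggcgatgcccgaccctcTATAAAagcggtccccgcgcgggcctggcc
Pparg: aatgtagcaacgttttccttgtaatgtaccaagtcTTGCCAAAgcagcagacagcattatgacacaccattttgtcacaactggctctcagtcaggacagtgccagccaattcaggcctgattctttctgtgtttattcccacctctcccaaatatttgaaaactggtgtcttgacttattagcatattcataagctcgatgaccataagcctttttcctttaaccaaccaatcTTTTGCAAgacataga
The Cebpb window held 3 half-sites TGACG, at -180, -53 and -7 from the start, and 1 match to CCACCC at -38. The Klf9 window held 1 half-site at -46, and that of Klf15, which is not printed, held 2, at -78 and -6. TGACG occurred in 17.8% of 32851 such windows of all genes. None of the 11 windows of the 7 factors with a window held the full site TGACGTCA, which 1.55% of all windows hold. The Pparg window held 2 matches to TTGCNNAA, at -215 and -16, a motif found in 9.56% of windows. Cebpa was the factor with TATAAA in the usual orientation, at -30, a motif found in 12.4% of windows on either strand, and another Pparg window held it on the opposite strand at -29. CCACCC, found in 28.1% of windows, was also held by windows of Cebpa, Rxra and Pparg. The windows of Ebf1 held none of the 5 motifs, and no window was used for Cebpd or Klf5. The windows did not match the CRE classes throughout. Those of Rxra held neither TGACG nor TATAAA and that of Cebpb held no TATAAA, though both genes carry the class with a TATA box. These matches describe letters in the windows and are not evidence of binding.

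All 4 arrays had signal for adipocyte markers. The 7 measured adipocyte markers summed to an intensity of 45770 (vehicle), 46490 (forskolin), 57420 (chow) and 52680 (high fat diet). In the cultures the endothelial markers Pecam1 and Tie1 and the macrophage markers C1qa, C1qb and Trem2 were below the array's 10th percentile, used as a floor of 22.1 with vehicle and 22.23 with forskolin. The other markers of both lists were above it, with Csf1r at 3293, Cd14 at 813.7 and Egfl7 at 330.6 with vehicle. These readings do not show that either cell type was absent from the cultures. In none of the marker lists did a measured gene differ by 2-fold between the culture arrays. With 1 array per group there is no spread between replicates and no test, so each fold below is the ratio of 2 arrays. The level filter asks that a gene reach, on its brighter array of the pair, the median gene level there.

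**Figure D1:**
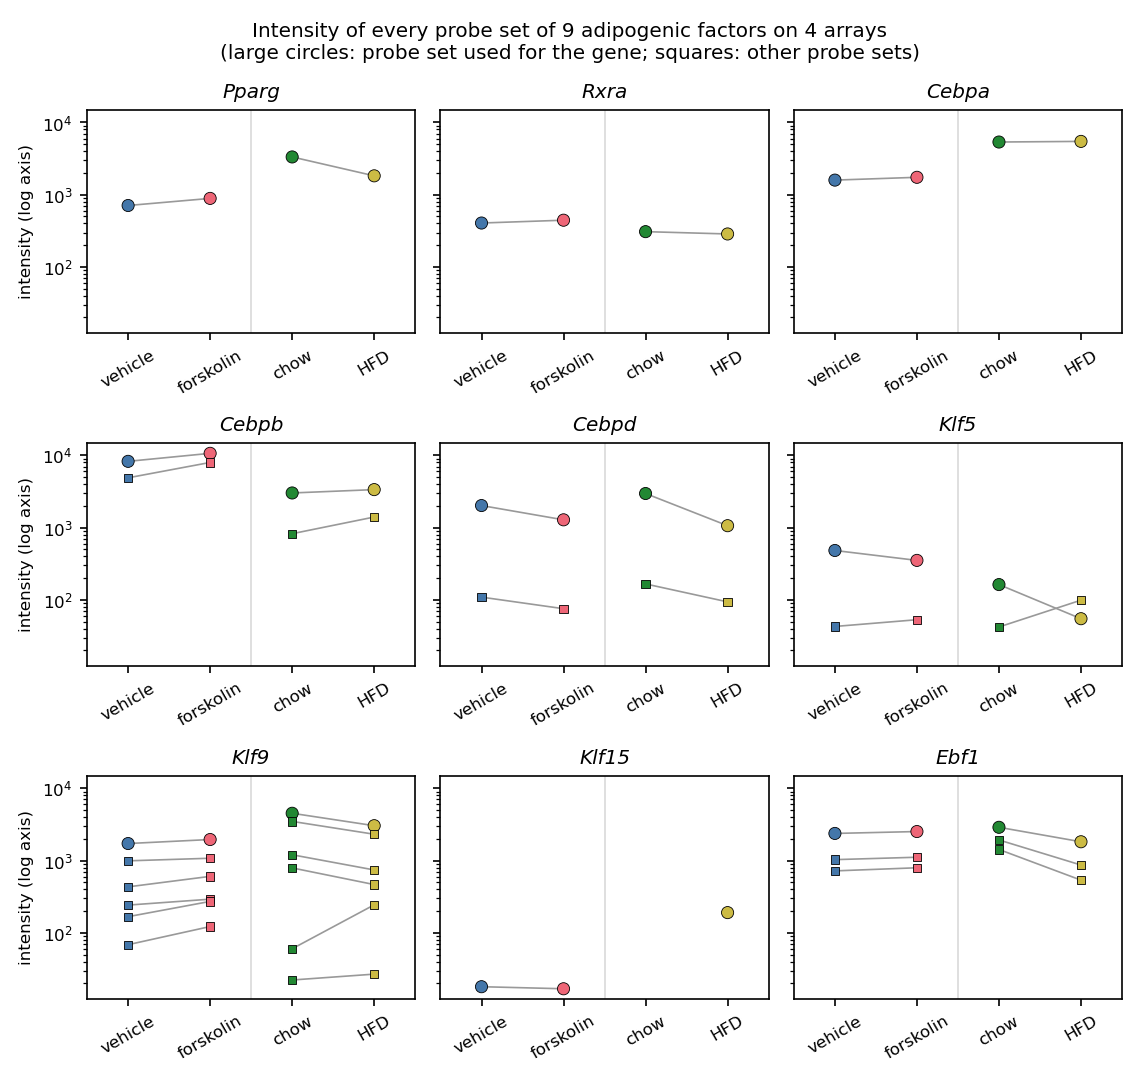
Intensity (log axis) of the 19 probe sets of the 9 factors on the 4 arrays, with large circles for the probe set used for the gene, squares for the others and lines joining the 2 arrays of a comparison. Cebpd and Ebf1 were lower on the high fat diet by every probe set, whereas the probe sets of Klf5 and Klf9 disagreed.

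Forskolin addresses which of these factors respond to raised cAMP within 2 h. No factor was 2-fold apart from vehicle. Cebpb was higher by 1.29-fold and 1.63-fold in its 2 probe sets, Pparg was 1.25-fold higher, and Cebpd was lower by 1.58-fold and 1.45-fold. Rxra, Cebpa and Ebf1 differed by at most 1.11-fold. Of the 8 factors above the floor, each of which passed the level filter, 0 were higher by 2-fold or more, against 2.04% of 12368 genes above the floor on at least 1 array, and 0 at least 2-fold lower, against 1.15%. At 1.5-fold, 1 was lower (Cebpd; 4.49% of genes) and 0 higher (6.09%). Among genes at the level filter the shares were 1.22% and 0.134% at 2-fold and 2.37% and 0.641% at 1.5-fold. The median log2 difference of the 8 factors was 0.13, against -0.01 over all genes.

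Cebpb, an early C/EBP factor, read 8272 with vehicle and 10680 with forskolin by its brighter probe set (log2 difference 0.37). By its other probe set it read 4895 and 7985 (0.71). Both lay higher with forskolin, and the authors' deposited table gives bounds of 1.2 to 1.39 and of 1.57 to 1.7 for these folds. Those bounds come from 1 array per group and cannot hold variation between cultures. The brighter reading is near the top of the scale, where the highest intensities were 13690 with vehicle and 13960 with forskolin.

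Cebpd, the other early C/EBP factor, read 2022 with vehicle and 1283 with forskolin (log2 difference -0.66). Its dimmer probe set, below the level filter, read 109.2 and 75.48 (-0.53). The difference of the brighter probe set lay below that of 96.4% of genes and was the lowest among the 8 factors with a value. In the authors' deposited table the fold of that probe set had bounds of -1.43 and -1.74, which lay on 1 side of no change, and those of the dimmer probe set, -0.94 and -2.23, on both.

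Pparg, the receptor that fat cells depend on, read 709.5 with vehicle and 889.9 with forskolin (log2 difference 0.33), a difference above that of 87.2% of genes. The authors' deposited table gives bounds of 1.08 and 1.46 for that fold. Its partner Rxra read 405.9 and 444.1, and Cebpa, which sustains Pparg, read 1594 and 1743, both 1.09-fold higher. For both of them the lower bound in the authors' deposited table was under 1 (0.98 and 0.95).

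Ebf1 was higher by 1.06-fold, 1.08-fold and 1.11-fold in its 3 probe sets, with the brightest reading 2372 with vehicle and 2520 with forskolin. Klf9, a late-acting KLF factor also known to respond to glucocorticoids, was higher in all 6 of its probe sets, by 1.09-fold to 1.78-fold. The brightest of them read 1719 and 1954 (1.14-fold), and the dimmest, which is annotated to Klf9 together with a second gene identifier, 68.44 and 122. The 2 largest folds of Klf9 thus came from its 2 dimmest probe sets. Klf5 disagreed between its probe sets, reading 482.8 and 352.1 (1.37-fold lower) by the brighter and 42.87 and 53.14 (1.24-fold higher) by the dimmer. Klf15, a later KLF factor, read 17.93 and 16.79, both below the floor, so no fold is given.

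The signs of the gene values with forskolin were the same after quantile normalization and after centring.

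**Figure D2:**
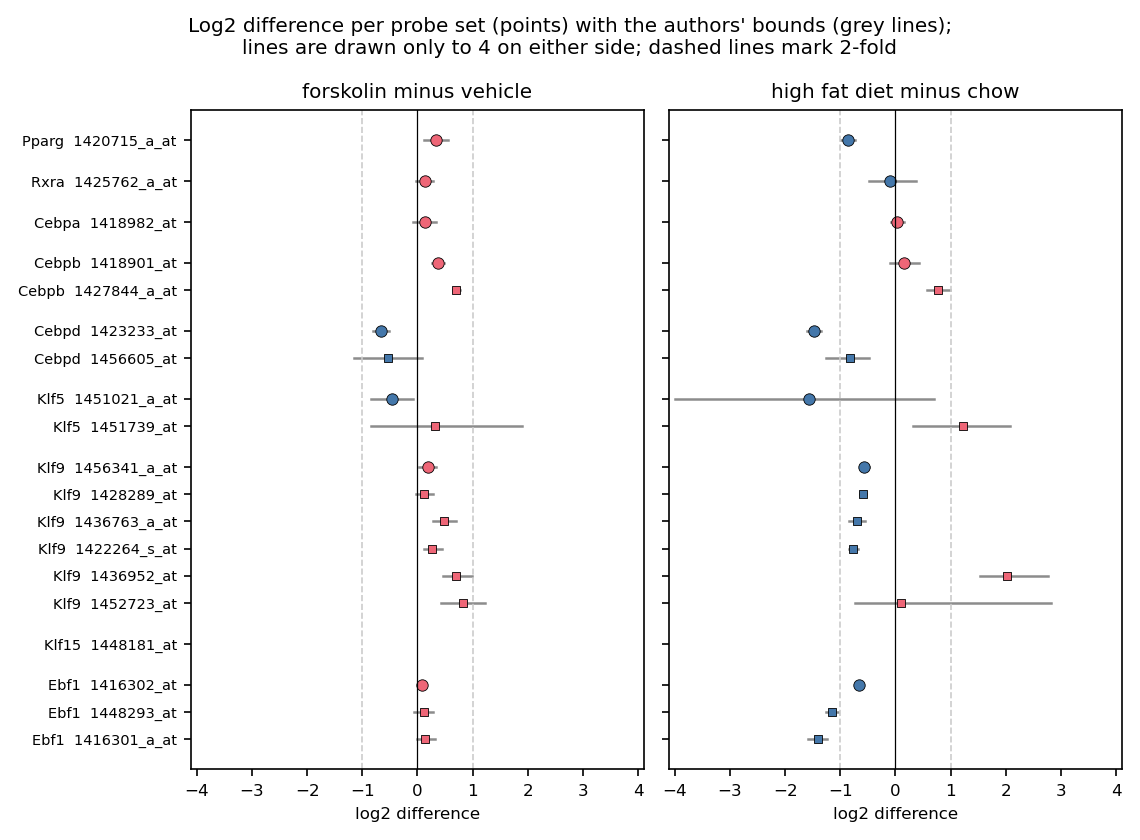
Log2 difference of each probe set (points; large circles for the probe set used for the gene) with the bounds of the fold in the authors' deposited table as grey lines, drawn to 4 on either side, for forskolin minus vehicle (left) and high fat diet minus chow (right). Points lie within 2-fold on the left, and 6 lie beyond 2-fold on the right, 4 lower and 2 higher.

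The diet comparison asks how these factors differ in the fat of mice fed a high fat diet. On the high fat diet Cebpd was 2.79-fold lower, Pparg 1.83-fold lower and Ebf1 lower by 1.59-fold to 2.66-fold, whereas Cebpa and the brighter probe set of Cebpb differed from chow by at most 1.11-fold. Klf5 was 2.97-fold lower by 1 probe set and 2.35-fold higher by the other, both dim. Of the 8 factors with a value on both arrays, 2 were at least 2-fold lower (Cebpd and Klf5), against 7.84% of 12265 genes above the floor on at least 1 array, and 0 at least 2-fold higher, against 12.8%. At 1.5-fold, 4 were lower (with Pparg and Ebf1), against 18.1% of genes, and 0 higher, against 23.4%. Klf9 lay just outside, at 1.49-fold. Of the 6 factors at the level filter, 1 was at least 2-fold lower (Cebpd; 5.97% of genes) and 0 higher (15.6%), and 3 were at least 1.5-fold lower (14.4%) and 0 higher (27.9%). The median log2 difference of the 8 factors was -0.62, against 0.06 over all genes.

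The scaling between arrays moves these values. Quantile normalization shifted the median of all genes from 0.06 to -0.16 on the log2 scale and the share of higher genes among all 2-fold calls from 62.1% (1573 higher, 962 lower) to 44.7% (1233 higher, 1525 lower). Under it the median of the 8 factors was -0.98, and 4 of them were at least 2-fold lower (12.4% of all genes) and 0 higher (10.1%), with Pparg (-1.25) and Ebf1 (-1.03) beside Cebpd (-1.85) and Klf5 (-1.64). After centring each array on its median gene level 3 were at least 2-fold lower (12.1% of all genes) and 0 higher (9.76%), with Pparg at -1.08. Relative to all genes, the median of the factors was therefore lower both as deposited and after quantile normalization.

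**Figure D3:**
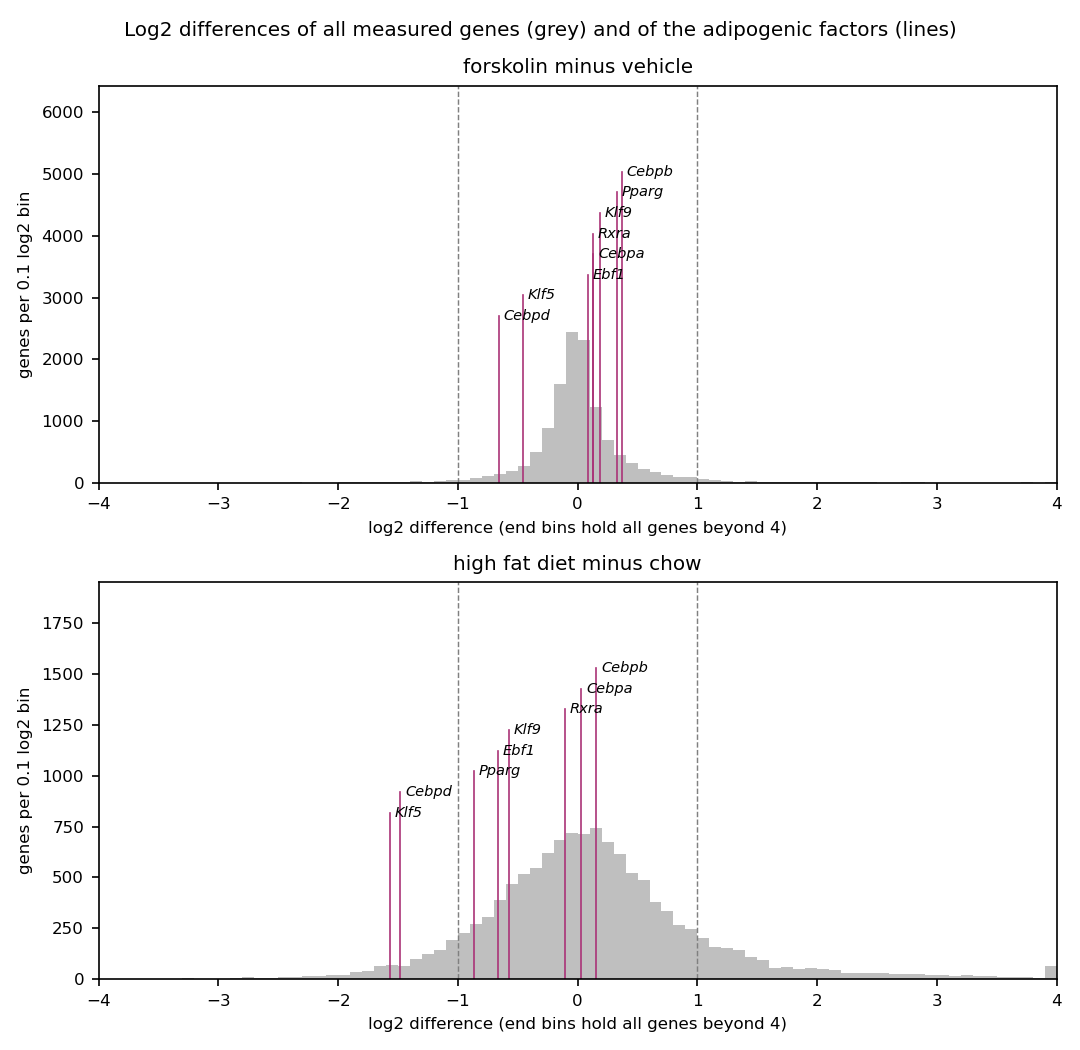
Number of genes by log2 difference (0.1-wide bins, grey) for forskolin minus vehicle (top) and high fat diet minus chow (bottom), with the factors as lines whose heights serve only to separate the names and with dashed lines at 2-fold. Cebpd and Klf5 lie to the left of most genes in both panels, but the other Klf5 probe set, not drawn, was higher in both comparisons (0.31 and 1.23).

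Pparg read 3335 on chow and 1827 after high fat feeding (log2 difference -0.87), a difference below that of 89.7% of genes. The authors' deposited table gives bounds of -1.67 and -1.99. Rxra read 308.4 and 286.4, below the level filter, and its bounds in the authors' deposited table, -0.77 and -1.40, lay on both sides of no change. The receptor was thus lower by its only probe set, while its partner differed by 1.08-fold.

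Cebpa read 5366 on chow and 5475 after high fat feeding, with a log2 difference of 0.03 as deposited, -0.18 after centring and -0.33 after quantile normalization. Cebpb read 3019 and 3360 by its brighter probe set, at 0.15, -0.05 and -0.18 under the same settings, so neither has a settled direction. The other Cebpb probe set read 824.1 and 1402, 1.70-fold higher, and kept that direction at 0.56 and 0.54. Cebpd read 2967 and 1064 by its brighter probe set (log2 difference -1.48) and 166.3 and 93.84 by the dimmer (-0.83). Both Cebpd probe sets were lower, by 2.79-fold and 1.77-fold, and their bounds in the authors' deposited table, -2.56 to -3.04 and -1.40 to -2.39, lay on 1 side of no change. Cebpd was lower on the treated array in both experiments, which share no array.

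Ebf1 read 2885 on chow and 1819 after high fat feeding by its brightest probe set. The second read 1926 and 866.7 and the third 1423 and 535.6. All 3 were lower, by 1.59-fold, 2.22-fold and 2.66-fold, so the size of the fold depended on the probe set. The gene value therefore moved from -0.67 to -1.15 on the log2 scale when the median over its probe sets was used.

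Klf9 read 4511 on chow and 3036 after high fat feeding by its brightest probe set. Its 4 bright probe sets, between 790.5 and 4511 on chow, were lower by 1.49-fold to 1.70-fold. A dim one was opposite in direction, reading 60.08 and 243.6 (4.05-fold higher), and the dimmest read 22.2, below the floor of 25.08, and 26.77. Klf5 read 162.9 and 54.88 by 1 probe set and 42.16 and 99.08 by the other, all below the level filter. For the first, the authors' deposited table has bounds from -0.62 downward with no limit, which crossed no change, and for the second 1.25 and 4.22. Klf15 read 190.2 on the high fat diet, and its cell for chow was empty, so no fold is given.

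Markers of other cells differed between the same 2 fat arrays. Of 9 measured macrophage markers 7 were higher by 2-fold or more after high fat feeding and 0 lower, and these 9 summed to 13870 (chow) and 50110 (high fat diet). C1qb read 6411 on the high fat diet and had no value on chow, and C1qa had none on either array. Of 8 B cell markers 6 were at least 2-fold higher, with sums of 1642 and 15210, while Pax5 read 67.93 and 46.06. The 10 fibroblast and preadipocyte markers summed to 24320 and 34860, the 7 endothelial markers to 12010 and 9924, the 4 mesothelial markers to 2140 and 993.8, and the 5 smooth muscle and pericyte markers to 6629 and 5619. Single bright genes weigh most in these sums: the median log2 difference of the smooth muscle and pericyte markers was -0.90, with 2 of 5 at least 2-fold lower, and that of the endothelial markers was 0.11. The 3 neutrophil markers with a value on both arrays summed to 456.9 and 868 and the 4 skeletal muscle markers to 618.6 and 1369. The adipocyte marker sums were 57420 and 52680, with Lep 2-fold or more higher and Cfd lower. Bright markers such as Fabp4 (12620 and 12790) and Adipoq (10460 and 9962) weigh most in these sums. They read near the arrays' highest values of 13700 and 13230, where differences can be compressed. The sums therefore do not show that the adipocyte share was alike on both diets. The part of cell composition in the lower Cebpd, Pparg and Ebf1 readings was not tested.

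Between the cultures and the whole tissue the levels of several factors differed more than within either experiment. Pparg read 4.70-fold higher on the chow array than on the vehicle array, Cebpa 3.37-fold higher and the 4 bright probe sets of Klf9 2.62-fold to 3.52-fold higher. The 2 dim Klf9 probe sets were opposite, 2.78-fold and 2.73-fold higher on the vehicle array, the latter with a chow reading below the floor. Cebpb was the opposite, 2.74-fold and 5.94-fold higher in the cultures by its 2 probe sets. The brighter Klf5 probe set was 2.96-fold higher in the cultures, while Cebpd, Ebf1 and Rxra differed by less than 2-fold. From high to low, the arrays ranked chow, high fat diet, forskolin and vehicle for Pparg and for the brightest Klf9 probe set, and forskolin, vehicle, high fat diet and chow for both Cebpb probe sets. For Cebpa the 2 fat arrays lay above the 2 culture arrays and differed from each other by 1.02-fold, while Ebf1 was lowest on the high fat diet. After quantile normalization the log2 differences of chow minus vehicle were 2.45 for Pparg, 2.02 for Cebpa and -1.16 and -2.43 for Cebpb. Culture and tissue came from separate experiments, and the endothelial marker sum was 770.1 with vehicle and 12010 on chow, so culture, cell composition and experiment cannot be told apart.

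Likeness of pattern was measured as the Euclidean distance between log2 levels over the 4 arrays, each gene centred on its own mean, among 7667 genes. The closest to Pparg were Zbed3 (distance 0.12) and Gja1 (0.13). Those closest to Cebpa were Hcfc1r1 (0.10) and Mme (0.10), and to Cebpb Dnaja2 (0.16) and Golt1b (0.16). Rgs3 (0.09), reading 1485 with vehicle, 946.4 with forskolin, 2354 on chow and 821 after high fat feeding, was closest to Cebpd, followed by Ccn2 (0.19). Klf9 had Agtpbp1 (0.05) and Ndrg1 (0.05), Ebf1 had Hbs1l (0.04) and Impdh1 (0.05), and Rxra had Dazap1 (0.04) and Prps2 (0.05). Klf5 had Pacsin3 (0.35) and Slc6a9 (0.52), the largest distances of the 8 factors. With 4 arrays many genes share a pattern, so these distances are descriptions.

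Other regulators of fat cell formation were read from a list of 70 genes, 62 of them measured in each comparison. The list was chosen with earlier results of these data known, so its shares are descriptions. With forskolin 5 were 2-fold or more above vehicle (8.06%, against 2.04% of all genes) and 1 below (1.61%, against 1.15%), at a median log2 difference of -0.005. Klf4, a KLF factor known to activate Cebpb in mouse precursor cells, read 1315 and 5287 (4.02-fold higher, and higher by both of its probe sets). The vitamin D receptor gene Vdr was 3.63-fold higher. Id3 and Hes1, listed as inhibitors of fat cell formation, were 2.20-fold and 2.16-fold higher. Vdr, Id3 and Hes1 were at the level filter. Id2, counted among the higher genes, and Snai2, the lower one, gave bounds from readings under the floor. Klf10 was 1.66-fold lower, and Klf6 read 2423 and 1615. By the probe set used for each, the C/EBP relatives Cebpg, Cebpz and Ddit3 differed by at most 1.22-fold, and Srebf1, Nr1h3, Rxrb and Rxrg by at most 1.07-fold. Nr3c1 was 1.15-fold lower, and Ppara and Ppard, below the level filter, were 1.13-fold and 1.57-fold higher.

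On the high fat diet 6 of these 62 were at least 2-fold higher (9.68%, against 12.8% of all genes) and 11 lower (17.7%, against 7.84%), with a median of -0.17. After quantile normalization 5 were higher (8.06%, against 10.1%) and 15 lower (24.2%, against 12.4%), with a median of -0.51. Among the cofactors 4 of 13 were at least 2-fold lower (30.8%, against 7.84% of all genes) and 1 higher (7.69%, against 12.8%). The lower ones included Lpin1, a PPAR coactivator and lipid enzyme (5679 and 1067, 5.32-fold lower), Nrip1 (2.76-fold lower) and Ppargc1b (2.01-fold lower), and Ncoa3 was the higher one (2.79-fold). The Ebf1 relatives Ebf2 and Ebf3 were 2.10-fold and 2.12-fold lower, each by 3 of 3 probe sets in direction, Nfia was 3.27-fold lower and Foxo1 1.93-fold lower. Id2 and Tgfb1 were 10.0-fold and 9.02-fold higher, and Tcf7l1 and Nr2f2 were 2.19-fold and 2.40-fold lower. All of them came from the list headed inhibitors of fat cell formation. That heading is the list's own, was not tested and need not hold for every gene on it, Id2 included. Ddit3 was 2.11-fold higher, Klf6 1.84-fold higher and Klf4 1.70-fold lower. Among the nuclear receptors Ppara read 168.9 and 46.71, below the level filter, and Rxrb and Nr1h3 differed by at most 1.16-fold. Nr3c1 disagreed between its 3 probe sets, from a log2 difference of -0.03 in the brightest to 1.69.

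Known targets of PPARG and the C/EBP factors in fat cells were set beside their regulators. With forskolin all 24 measured targets lay within 1.5-fold of vehicle, as did 89.4% of all genes (median log2 difference 0.06). Some read near the highest vehicle intensity of 13690, such as Cfd (13170), Scd1 (11950) and Fabp4 (10820), where differences can be compressed. Pck1 read 27.3 with vehicle, near the floor of 22.1, and 9.28 with forskolin, below the floor of 22.23. Its other probe set was higher with forskolin (log2 difference 0.33), so the 2 disagreed in direction. For such targets a small fold does not show a lack of response. On the high fat diet 16 of 22 lay within 1.5-fold (72.7%, against 58.5% of all genes). At 2-fold, 1 was higher (Lep, 6.83-fold; 4.55%, against 12.8% of all genes) and 2 were lower (Retn, 3.48-fold, and Cfd, 2.13-fold; 9.09%, against 7.84%), with a median of 0.004 as deposited and -0.26 after quantile normalization. Fabp4 read 12620 and 12790, Adipoq 10460 and 9962 and Lpl 10680 and 10950. These readings lie near the arrays' highest values of 13700 and 13230, where differences in abundance can be compressed, so they do not show that these targets were alike on both diets. Cd36 (1.08-fold higher), Cidec (1.08-fold lower) and Slc2a4 (1.43-fold higher, below the level filter) also lay within 1.5-fold.

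**Figure D4:**
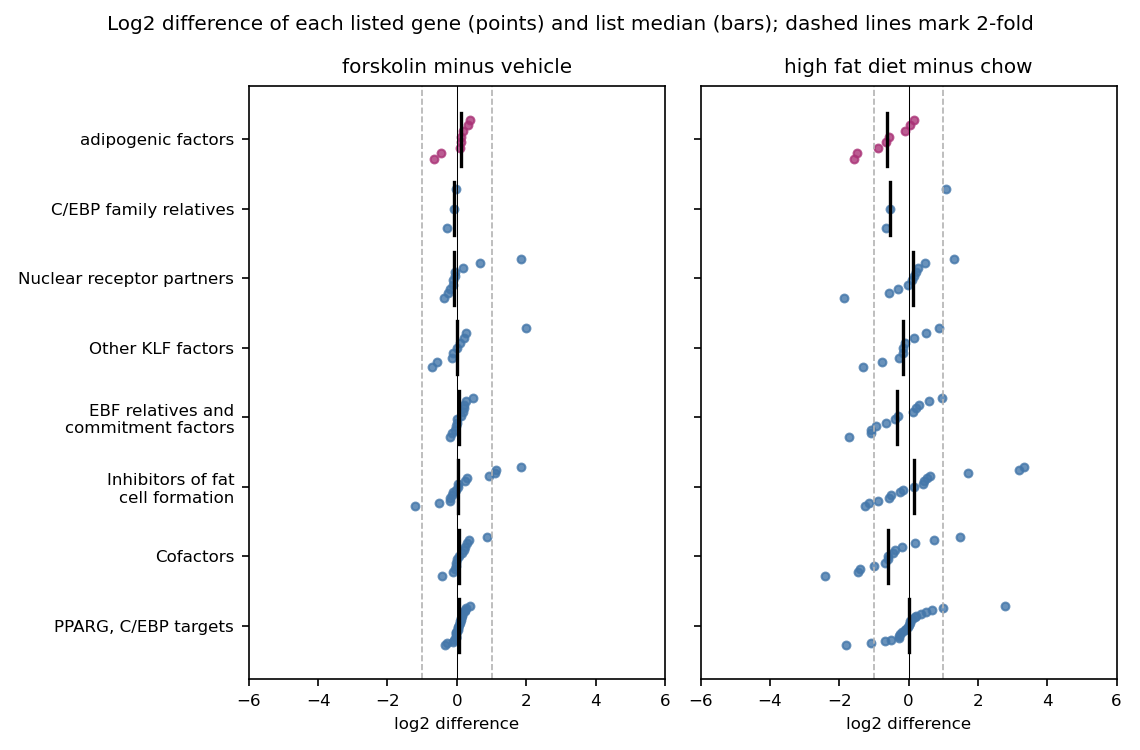
Log2 difference of each measured gene (points) and list median (black bars) for the 9 factors and 7 lists of related genes, forskolin minus vehicle on the left and high fat diet minus chow on the right, with dashed lines at 2-fold. The factors and the cofactors have medians of -0.62 and -0.59 on the high fat diet, and the target genes one of 0.004.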

How the data were processed

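RNA of 4 mouse fat samples, 1 per group, was measured on Affymetrix arrays. The deposited values are 1 intensity per probe set on a linear scale, and neither their software nor their normalization is stated in the labels or headers. Both deposited tables held equal values in 90504 of 90504 cells. Fold changes with bounds are the authors' own, per the file headers, and no source states the confidence level of the bounds. The number of arrays limits the precision.

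Values under an array's 10th percentile (22.1 to 26.03) were raised to it before log2, and a difference was left out where both arrays of a pair were below the floor. Probe sets were named by gene ID through a RefSeq table of assembly GRCm38.p6 (20834 probe sets), and otherwise by symbol or synonym. Among the probe sets of a gene with the most values, the one brightest on average over the arrays (log2) stood for it. With 1 array per group no p-value could be given. Genes were named by membership, by a list of fixed names, by the 4 largest absolute differences at the level filter in each list and comparison, and by the 2 nearest patterns per factor, of which the text gives some. Id2 and Snai2 with forskolin were named after their values were seen. Members and lists were chosen with earlier results of these data known. Alternatives were other fold thresholds, quantile normalization, centring, adding 16 before log2, the median over probe sets and the authors' folds. Flooring, probe set choice and counting were run on simulated arrays with known folds, the same in every probe set of a gene. That check cannot speak to disagreeing probe sets, readings near the top of the scale or scaling between arrays. Work was done in Python 3.11.15, pandas 2.3.3 and matplotlib 3.10.9.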

Additional observations from a re-analysis of the deposited data

How the results depend on the processing

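No factor passed 2-fold with forskolin under any alternative other than a threshold of 1.5-fold, which gave 1 lower (Cebpd; 4.49% of all genes). For the high fat diet, the factors that passed were all lower. As reported 2 passed (7.84% of all genes were lower), at 1.5-fold 4 (18.1%) and at 3-fold 0. Quantile normalization gave 4 (12.4%) and centring 3 (12.1%). Among factors at the level filter, a setting chosen after seeing the data, 1 passed (5.97% of genes there). The share of all genes thus also moved with the setting, and none is given for 3-fold. Klf5 rested on 1 of 2 probe sets: with the median over both, its log2 difference was -0.073 with forskolin and -0.169 on the high fat diet. Of 80 recomputed values of the factors, 76 had the sign reported, and the other 4 were Cebpa and Cebpb on the high fat diet after centring and quantile normalization. A value was taken as unmoved within the median gap between probe sets of a gene, 0.26 for forskolin and 0.70 for the diet, which is wide. No paired analysis was possible because each group held 1 array. Without replicate arrays, no difference can be set against variation between cultures or mice. Readings below the level filter limit Klf5 in the fat pads and the dim probe sets of Klf5, Klf9 and Cebpd. Klf15 read below the floor on both culture arrays and had no value on chow.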
